A study of Mus musculus with 36 samples.

Results

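Cardiac muscle takes up fatty acids, glucose and lactate and passes the energy they yield to the contractile apparatus through creatine kinase. The 10 genes of these steps described here were followed across 3 tissues and 3 ages, heart first. They are Cd36, Fabp3, Lpl, Slc2a4, Slc2a1, Hk2, Ldha, Ldhb, Ckm and Ckmt2, chosen by name and matched to their Ensembl identifiers, and make up 10 of the 78239 genes in the count files. RNA carrying a polyA tail was sequenced from whole heart, kidney and liver of wild-type (WT) male C57BL/6NCrl mice aged 8, 10 or 12 weeks, with 4 libraries in each of the 9 groups of tissue and age and 36 in all. The mice came from Charles River, ate standard chow ad libitum and were anesthetized with ketamine and xylazine before the organs were taken and flash-frozen. No group carried a transgene or received a treatment. The groups were set by tissue and age, and each age consists of different animals. Within an age the organs were taken from the same group of mice, so the tissues share animals, and the sources used here do not say which libraries came from 1 mouse. The mice were all bought at the same age and kept in shared cages. Collection days and the cages of the libraries are not given in the sources used here. Age therefore cannot be told apart from collection day, cage or time in the facility. A whole organ mixes many cell types, and fewer cells of a type and less RNA per cell cannot be told apart in any value below.

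The heart draws most of its energy from fatty acids. Lipoprotein lipase (Lpl) frees them from circulating lipoproteins, the membrane protein CD36 helps them into the cell and the heart-type binding protein FABP3 carries them through the cytosol. Glucose enters through GLUT4 (Slc2a4), which moves to the cell surface under insulin, and through GLUT1 (Slc2a1), which is always present there, and hexokinase 2 (Hk2) traps it as glucose 6-phosphate. Lactate dehydrogenase is a tetramer of LDHA and LDHB subunits that interconverts lactate and pyruvate, and LDHB is the form typical of heart. Creatine kinase buffers ATP, with the muscle form CKM in the cytosol and CKMT2 in mitochondria, so that phosphocreatine links the sites of ATP production and use.

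The upstream sequences of 4 of these genes are shown first, since they set the genes expressed in heart alone beside genes expressed in all 3 tissues. They come from the RefSeq promoter table of build GRCm38.p6, which holds 9 promoters of 8 of the 10 symbols, and each is the 250 bases before the transcription start, read 5′ to 3′ on the strand of the gene. In the promoters of the creatine kinases, capitals mark every E-box (CANNTG, the motif that muscle regulatory proteins of the bHLH family bind).
Ckm (chr7:19410844-19411093, plus strand): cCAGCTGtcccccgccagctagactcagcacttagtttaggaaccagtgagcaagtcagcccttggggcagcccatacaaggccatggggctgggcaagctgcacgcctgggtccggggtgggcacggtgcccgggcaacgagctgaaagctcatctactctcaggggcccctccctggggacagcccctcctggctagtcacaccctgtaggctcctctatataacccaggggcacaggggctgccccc
Ckmt2 (chr13:91876886-91877135, minus strand): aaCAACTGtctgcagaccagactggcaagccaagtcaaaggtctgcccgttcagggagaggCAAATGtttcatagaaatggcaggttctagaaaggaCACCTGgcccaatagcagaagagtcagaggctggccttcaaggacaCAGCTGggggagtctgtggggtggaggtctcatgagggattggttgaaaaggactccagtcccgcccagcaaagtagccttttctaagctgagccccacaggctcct
In the promoters of Ldha and Slc2a1, genes of glycolytic metabolism, capitals mark ACGTG on either strand, the core of the hypoxia response element, and the ACGTG matches overlap both CACGTG E-boxes of Ldha.
Ldha (chr7:46845554-46845803, plus strand): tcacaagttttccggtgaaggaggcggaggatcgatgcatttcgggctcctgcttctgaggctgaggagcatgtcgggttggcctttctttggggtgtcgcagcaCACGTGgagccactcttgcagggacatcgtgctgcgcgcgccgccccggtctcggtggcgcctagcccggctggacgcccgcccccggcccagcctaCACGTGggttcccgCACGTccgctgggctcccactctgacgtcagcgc
Slc2a1 (chr4:119108495-119108744, plus strand): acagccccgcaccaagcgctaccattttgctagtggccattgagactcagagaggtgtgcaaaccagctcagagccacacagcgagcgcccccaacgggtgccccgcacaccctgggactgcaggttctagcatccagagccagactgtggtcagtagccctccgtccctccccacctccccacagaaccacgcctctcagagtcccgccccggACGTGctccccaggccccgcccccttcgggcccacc
The Ckm window holds 1 E-box and the Ckmt2 window 4. The Ldha window holds 5 ACGTG matches counted on both strands and the Slc2a1 window 1. Searched on both strands and over all 300 bases of each promoter, which include 50 bases after the start, an E-box occurs in 6 of the 9 promoters and in 72.3% of the 32851 mouse promoters in the table. ACGTG occurs in 3 of the 9 (Slc2a1, Hk2 and the upstream promoter of Ldha) and in 19.6% of all, the GC box GGGCGG in 5 and in 35.7%, and TATAAA in 1 and in 13.6%. The binding site of estrogen-related receptors (TCAAGGTCA), the DR1 repeat that PPARs bind and the MEF2 site have no match in the 9 promoters and occur in 0.423%, 0.0396% and 3.19% of all. A CArG box was found in 1 of the 9, that of Ldha, against 1.63% of all. These matches describe letters in short windows and say nothing of binding.

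The 36 libraries held 27540588 to 45185952 read pairs, of which 21031599 to 33637390 were counted on genes. Levels are given as CPM, the counted pairs of a gene scaled to a common library size with trimmed mean of M-values (TMM) factors over all 36 libraries. Cardiomyocyte markers (Myh6, Tnnt2, Tnni3, Actc1, Myl2, Myl3, Ryr2 and Nppa) summed to 50163 to 66104 CPM in the heart libraries and to at most 5.34 CPM in kidney and 1.23 CPM in liver. Proximal tubule markers summed to 25660 to 33150 CPM in kidney and hepatocyte markers to 77078 to 116336 CPM in liver, so each tissue carried the markers of its label. Skeletal muscle markers summed to 1.85 to 3.07 CPM in heart with Myh4 at 0, and adipocyte markers to 0 to 2.16 CPM. Several libraries stood apart. Replicate 4 of heart at 12 weeks had the highest cardiomyocyte sum, 66104 CPM, against 50163 to 57353 in the other hearts. Replicate 2 of kidney at 8 weeks had an adipocyte sum of 26.8 CPM against 0.187 to 3.22 in the other 3 kidneys of its age. This sum was also raised in replicate 1 of kidney at 10 weeks (19.4 CPM against 3.34 to 8.28) and at 12 weeks (12.9 CPM against 0.328 to 1.81). Hepatocyte markers summed to 16.7 and 25.3 CPM in replicates 2 and 4 of heart at 10 weeks and to at most 4.39 CPM in the other hearts. Where leaving out one of these libraries changed a call, both values are given.

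All 10 genes differed between heart and kidney and between heart and liver, and in both comparisons 9 were higher in heart and 1 was lower. Slc2a1 was the gene lower in heart than in kidney and Ldha the gene lower in heart than in liver. A difference was called at a Benjamini-Hochberg adjusted p under 0.05 in edgeR's quasi-likelihood test over all genes kept. At this threshold 86.1% of the 19716 genes tested differed between heart and kidney (39.0% higher and 47.1% lower in heart) and 84.2% between heart and liver (42.0% higher and 42.2% lower), so that a call in itself says little and the sizes carry the comparison. Positions of the genes below are on GRCm39. The median log2 difference of all genes was -0.15 between heart and kidney and 0.00 between heart and liver. The 10 genes together took 1.67% ± 0.0915 of the counted pairs in heart, 0.361% ± 0.0337 in kidney and 0.0436% ± 0.00591 in liver (SD, n = 12).

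**Figure D1:**
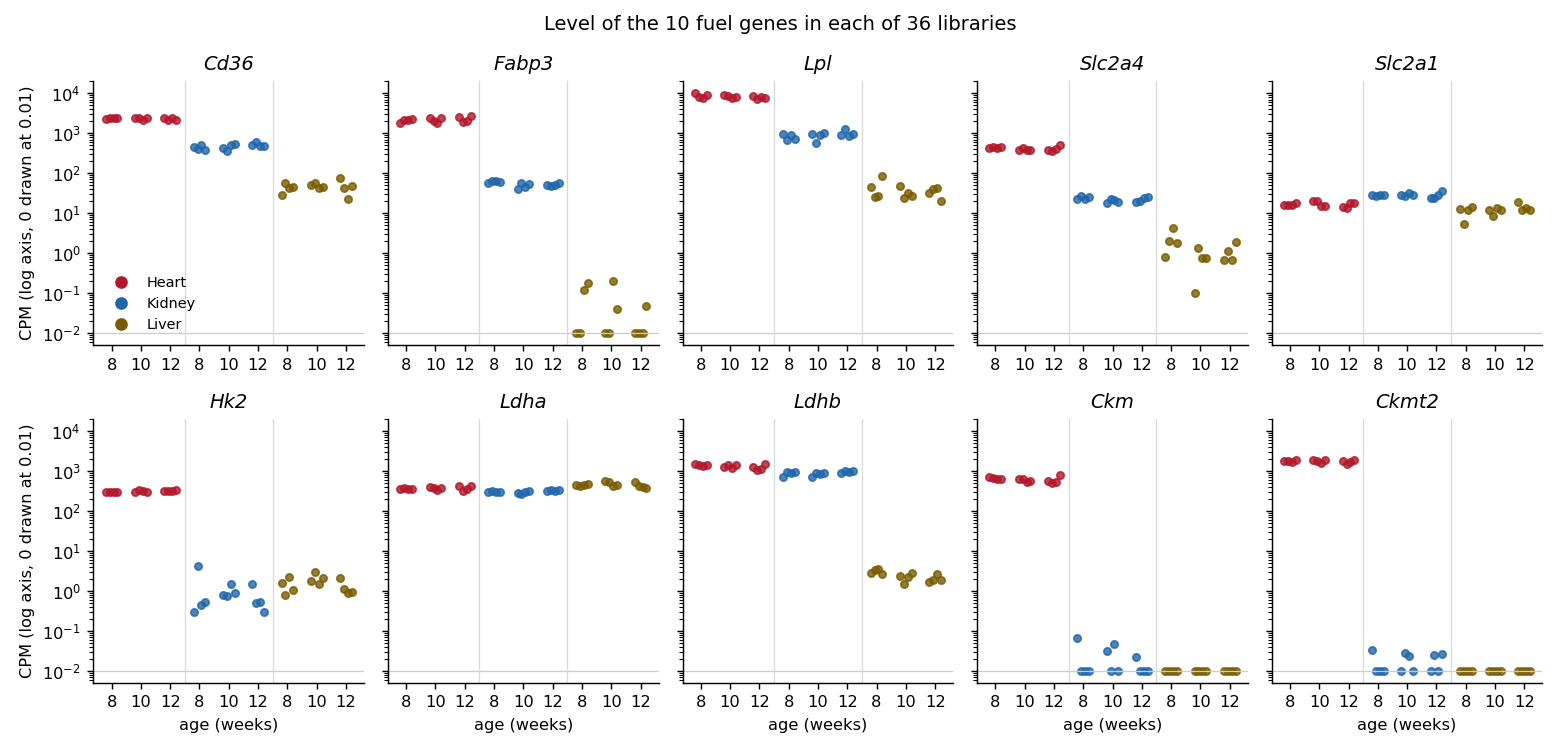
Level of each of the 10 genes in the 9 groups of tissue and age, as CPM on a log axis with 1 point per library (n = 4 per group) and libraries without a pair drawn at 0.01. Ckm and Ckmt2 lie at 493 CPM or more in every heart library and at no more than 0.0676 CPM in every kidney and liver library, whereas Ldha lies between 267 and 565 CPM in all 36.

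Among the fatty acid genes, Lpl (ENSMUSG00000015568, chr8:69284603-69360100, plus strand) had the highest level in heart, with a lowest, median and highest of 7353, 8206 and 10200 CPM over the 12 libraries. In kidney these were 585, 924 and 1270 CPM, and in liver 20.0, 32.8 and 84.8 CPM. The ranges of the 3 tissues were far apart, with a mean in heart 9.32-fold that of kidney and 222-fold that of liver (log2 differences 3.22 and 7.81, SE 0.161 and 0.200, edgeR adjusted p = 2.66e-19 and 4.91e-28). Cd36 (ENSMUSG00000002944, chr5:17986432-18094067, minus strand) had levels of 2125, 2402 and 2479 CPM in heart, again as lowest, median and highest. In kidney its levels were 357, 486 and 621 CPM, and in liver 22.2, 45.0 and 75.7 CPM. Heart thus stood 5.01-fold above kidney and 50.5-fold above liver in the mean, and the order heart, kidney, liver had no overlap between neighbours. Fabp3 (ENSMUSG00000028773, chr4:130202388-130209259, plus strand) had 1809, 2154 and 2739 CPM in heart and 40.7, 55.6 and 65.0 CPM in kidney, a 40.2-fold difference of the means. In liver 5 of 12 libraries had any pair on Fabp3, 11 pairs in all. The ratio of heart to liver for Fabp3, from pooled counts, was 49932 with a counting interval of 27906 to 100025, so the binding protein separated heart from liver by far more than the transporter or the lipase did in fold.

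The glucose transporters were distributed differently from each other. Slc2a4 (ENSMUSG00000018566, chr11:69831006-69839070, minus strand), the insulin-responsive transporter, had 356, 414 and 511 CPM in heart as lowest, median and highest. In kidney it had 18.2, 22.3 and 27.8 CPM and in liver 0.104, 0.954 and 4.27 CPM. Heart was 18.6-fold above kidney and 308-fold above liver in the mean. Slc2a1 (ENSMUSG00000028645, chr4:118965908-118996365, plus strand) had its highest levels in kidney, at 23.6, 28.7 and 35.9 CPM. Its levels in heart were 13.2, 16.2 and 20.6 CPM and in liver 5.38, 12.2 and 18.8 CPM. The ranges of heart and kidney did not overlap, and those of heart and liver did. The fitted log2 difference was -0.78 (SE 0.104, adjusted p = 2.33e-08) for heart against kidney and 0.46 (SE 0.108, adjusted p = 0.000217) for heart against liver. Whole kidney and liver carry many cell types, and these values do not show in which the transporter was expressed. Hk2 (ENSMUSG00000000628, chr6:82699740-82751469, minus strand), which phosphorylates the glucose taken up, had 290.3, 306 and 339 CPM in heart, 0.290, 0.636 and 4.15 CPM in kidney and 0.787, 1.53 and 2.90 CPM in liver. The mean in heart was 306-fold that of kidney and 197-fold that of liver. Kidney and liver did not differ at the threshold (log2 difference -0.64, 95% interval -1.26 to -0.02, adjusted p = 0.0534), and the call depended on the setting, being made in 10 of 42 alternatives that gave a p. Hk2 was lower in kidney by limma-voom (log2 difference -0.96, adjusted p = 0.00226), without a filter (-0.59, adjusted p = 2.93e-05) and with age and replicate number as a block (-0.69, adjusted p = 0.0448). It was also called when any of 7 libraries was left out, most clearly replicate 2 of kidney at 8 weeks (-1.17, adjusted p = 5.89e-06) and replicate 1 of kidney at 12 weeks (-0.89, adjusted p = 0.00973). The former library had 4.15 CPM of Hk2 and 16.2 CPM of the brown fat gene Ucp1, against at most 1.51 and 6.37 CPM in any other kidney. The 6.37 CPM of Ucp1 were in the latter library, which had 1.498 CPM of Hk2. The part of fat tissue in these Hk2 levels was not tested.

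The lactate dehydrogenase subunits differed most from each other in liver. Ldha (ENSMUSG00000063229, chr7:46490899-46505061, plus strand) was expressed in every tissue at a like level, with 319, 364 and 422 CPM in heart as lowest, median and highest. Kidney had 267, 306 and 342 CPM and liver 379, 439 and 565 CPM. The fitted log2 difference was 0.28 for heart against kidney (SE 0.0568, adjusted p = 3.53e-05) and -0.30 for heart against liver (SE 0.0568, adjusted p = 1.19e-05), with overlapping ranges in both. Ldhb (ENSMUSG00000030246, chr6:142435672-142454586, minus strand) had 1067, 1350 and 1506 CPM in heart and 705, 896 and 1024 CPM in kidney, where the log2 difference was 0.58 (SE 0.0699, adjusted p = 2.49e-09). In liver Ldhb had 1.45, 2.48 and 3.54 CPM, so that the mean in heart was 543-fold higher. Liver was therefore the tissue with the highest Ldha and nearly no Ldhb, and heart the tissue with the highest Ldhb.

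Both creatine kinases were counted almost entirely in heart. Ckm (ENSMUSG00000030399, chr7:19138701-19157965, plus strand), the cytosolic form, had 493, 619 and 807 CPM in heart as lowest, median and highest. In kidney 4 of 12 libraries had a pair on it, 6 pairs in all, and no liver library had any. The pooled ratio of heart to kidney was 45631, with a counting interval of 20964 to 124341, and heart was at least 3329-fold higher than liver at a floor of 3 pairs in a library. Ckmt2 (ENSMUSG00000021622, chr13:92001503-92025608, minus strand), the mitochondrial form, had 1537, 1765 and 1905 CPM in heart. In kidney 5 libraries had 1 pair each and in liver none had any, which gives a pooled ratio of 157823 (67629 to 486063) against kidney and at least 9584-fold against liver. Intervals and floors cover counting error only. Between kidney and liver 7 of the 10 genes were called, with 6 higher in kidney (Cd36, Fabp3, Lpl, Slc2a4, Slc2a1 and Ldhb) and Ldha lower. Of all genes 83.1% were called, 46.0% higher and 37.0% lower in kidney.

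How pairs were counted bore on several of these levels. The count used here takes a pair only if it lies on a single gene, without regard to strand, and the libraries carry no strand information (49.8% to 50.2% of strand counts on the first strand). Pairs on a stretch that an opposite-strand gene also covers are therefore left out, and the sum of the counts for the strands holds them. For Ckm this share was 66.6% to 73.5% of the summed pairs in the 12 hearts, with a median of 71.3%. The gene A930016O22Rik, annotated on the minus strand at chr7:19150426-19155342 (GRCm39) across exons of Ckm, had 12 to 47 pairs of its own in heart, against 11605 to 20298 on Ckm. The median share left out was 36.8% for Ldha, 21.4% for Ckmt2, 16.7% for Fabp3, 15.8% for Slc2a1 and 13.4% for Slc2a4. It was at most 0.00508% in every heart for Cd36, Lpl, Hk2 and Ldhb. The level of Ckm in CPM is thus a lower bound, and values for Ckm are given below in both counts. With strand counts summed, Fabp3 had 28 pairs in 9 liver libraries, with means of 2205 CPM in heart and 0.100 CPM in liver. Its ratio of heart to liver was therefore smaller in that count than the pooled ratio given above. Ckm then had 30 pairs in 10 kidney libraries and 3 pairs in 2 liver libraries.

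Levels of different genes were compared per length, as summed-strand CPM per kilobase of the canonical transcript. In heart, Fabp3 came first at 2679 ± 323 and Lpl next at 1707 ± 184 (SD, n = 12). Ckmt2 followed at 1193 ± 83.9, Ldhb at 725 ± 76.4 and Cd36 at 564 ± 29.8. The binding protein thus stood above the lipase at the canonical lengths, although Lpl ranked 10 and Fabp3 27 by CPM among all genes in heart. Ckm was at 436 ± 56.0, Ldha at 308 ± 26.5 and Slc2a4 at 155 ± 15.1. Hk2 at 33.3 ± 1.59 and Slc2a1 at 3.76 ± 0.480 were the lowest. Each gene lay above the next in 12 of 12 hearts, whereas the ranges over hearts overlapped for Ldhb and Cd36, for Cd36 and Ckm and for Ckm and Ldha. These places depend on the transcript taken as the length. Annotated transcripts run from 649 to 3522 bases for Fabp3 (canonical 823), from 671 to 6844 for Ckm (canonical 4058) and from 399 to 3162 for Ldha (canonical 1588), so the places of these genes, the first included, are uncertain. Fabp3 and Ldhb each have another near-copy in the genome, with 99.07% and 97.59% identity over 91.62% and 84.04% of the transcript, so that pairs could have been lost as multimapping, and these levels may be too low. Lpl has 842 matches elsewhere at up to 100% identity, which together cover 6.853% of its transcript. Pairs there could have been lost in the same way.

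Between ages, no gene of the 10 differed in heart at the threshold. At 12 against 8 weeks 4.56% of the 15137 genes kept in heart were called, at 10 against 8 weeks 1.06% and at 12 against 10 weeks 0.0396%. Neither limma-voom nor DESeq2 called any of the 10 in heart, and none had an unadjusted p under 0.05 in edgeR, where 23.4%, 15.8% and 11.7% of all genes did. Log2 differences ran from -0.18 to 0.15 at 12 against 8 weeks, and the 95% intervals of all 10 genes and all 3 comparisons lay between -0.43 and 0.41. An interval that includes 0 does not show that 2 ages were alike. Tests and statements of overlap between ages use scaling within the tissue, so printed CPM can touch by a fraction where scaled values did not.

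**Figure D2:**
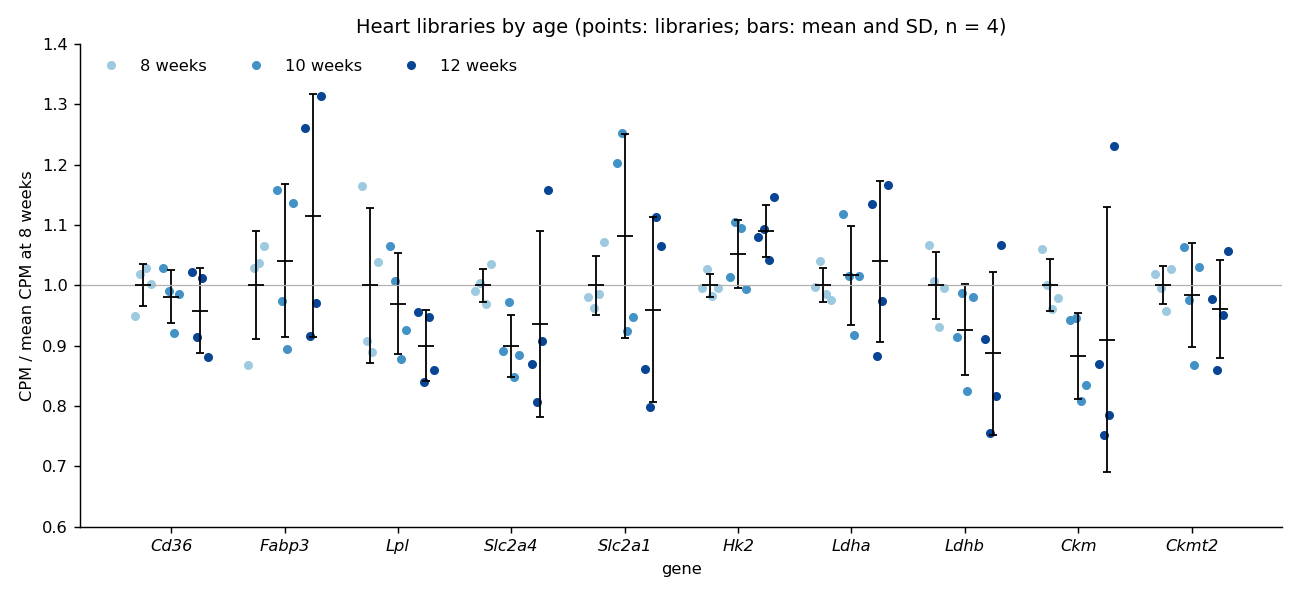
Level of each of the 10 genes in heart at 8, 10 and 12 weeks, divided by its mean at 8 weeks (linear axis, no unit). Points are libraries and bars show the mean ± SD (n = 4). Replicate 4 at 12 weeks is the highest of its age for 7 of the 10 genes, among them Ckm (807 CPM against 493 to 571). The share over all genes was not counted.

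For the fatty acid genes, Lpl measured 10200, 7957, 7788 and 9103 CPM in the hearts at 8 weeks. At 10 weeks it measured 9340, 8827, 7699 and 8112 CPM and at 12 weeks 8368, 7353, 8300 and 7534 CPM. The ages overlapped, and the log2 difference at 12 against 8 weeks was -0.16 (95% interval -0.36 to 0.05, adjusted p = 0.350). Cd36 measured 2289, 2453, 2479 and 2417 CPM at 8 weeks, 2477, 2388, 2219 and 2375 CPM at 10 weeks and 2463, 2203, 2440 and 2125 CPM at 12 weeks. It had the narrowest spread of the fatty acid genes, and its ages overlapped as well (log2 difference -0.07, interval -0.23 to 0.09). Fabp3 measured 1809, 2146, 2162 and 2222 CPM at 8 weeks and 2415, 2031, 1866 and 2368 CPM at 10 weeks. At 12 weeks it measured 2629, 1908, 2024 and 2739 CPM, with a pair of hearts above and a pair within the range at 8 weeks. Its log2 difference at 12 against 8 weeks was 0.15 (interval -0.10 to 0.41, adjusted p = 0.464).

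For the glucose genes, Slc2a4 measured 437, 443, 428 and 457 CPM at 8 weeks and 394, 429, 375 and 390 CPM at 10 weeks. On the scale of the heart libraries alone, the 4 hearts at 10 weeks all lay below the 4 at 8 weeks, with a log2 difference of -0.15 (interval -0.35 to 0.04, adjusted p = 0.452). At 12 weeks it measured 384, 356, 401 and 511 CPM, so 3 hearts lay below and 1 above the range at 8 weeks. Slc2a1 measured 16.2, 15.9, 16.3 and 17.7 CPM at 8 weeks, 19.8, 20.6, 15.3 and 15.6 CPM at 10 weeks and 14.2, 13.2, 18.4 and 17.6 CPM at 12 weeks. It spread more at the later ages, on both sides of the level at 8 weeks. Hk2 measured 295, 304, 290.3 and 294 CPM at 8 weeks and 299.9, 327, 324 and 294 CPM at 10 weeks. At 12 weeks it measured 319, 323, 308 and 339 CPM, and all 4 lay above the 4 at 8 weeks. The log2 difference for Hk2 was 0.12 (SE 0.0663, interval -0.02 to 0.26, adjusted p = 0.286).

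For the lactate genes, Ldha measured 360.3, 376, 356 and 353 CPM at 8 weeks, 404, 367, 332 and 367 CPM at 10 weeks and 410.0, 319, 352 and 422 CPM at 12 weeks. The hearts at 12 weeks lay on both sides of those at 8 weeks. Ldhb measured 1506, 1422, 1315 and 1405 CPM at 8 weeks and 1292, 1393, 1164 and 1385 CPM at 10 weeks. At 12 weeks it measured 1287, 1067, 1153 and 1506 CPM, with 3 hearts below the range at 8 weeks and 1 at its upper end. The log2 difference at 12 against 8 weeks was -0.18 (SE 0.0989, interval -0.39 to 0.03, adjusted p = 0.290).

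For the creatine kinases, Ckm measured 695, 656, 630.3 and 642 CPM at 8 weeks and 618, 619.8, 529.9 and 548 CPM at 10 weeks. The groups did not overlap, and the log2 difference was -0.18 (interval -0.43 to 0.07) with no call. At 12 weeks Ckm measured 571, 493, 515 and 807 CPM, which put 3 hearts below and 1 above every heart at 8 weeks. With the strand counts summed, it measured 2209, 1905, 1796 and 1923 CPM at 8 weeks, 1796, 1793, 1558 and 1729 CPM at 10 weeks and 1663, 1407, 1470 and 1995 CPM at 12 weeks. In this count replicate 4 at 12 weeks lay within the range of the hearts at 8 weeks. The share of Ckm pairs left out was 66.6% in that library, against 70.4% to 71.3% in the other hearts at 12 weeks. The log2 difference at 12 against 8 weeks was -0.14 in the count without strand (adjusted p = 0.502) and -0.27 in the summed count (adjusted p = 0.136). Ckmt2 measured 1824, 1781, 1714 and 1839 CPM at 8 weeks, 1905, 1745, 1553 and 1844 CPM at 10 weeks and 1749, 1537, 1700 and 1892 CPM at 12 weeks. Its ages overlapped (log2 difference -0.06 at 12 against 8 weeks, interval -0.24 to 0.11).

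**Figure D3:**
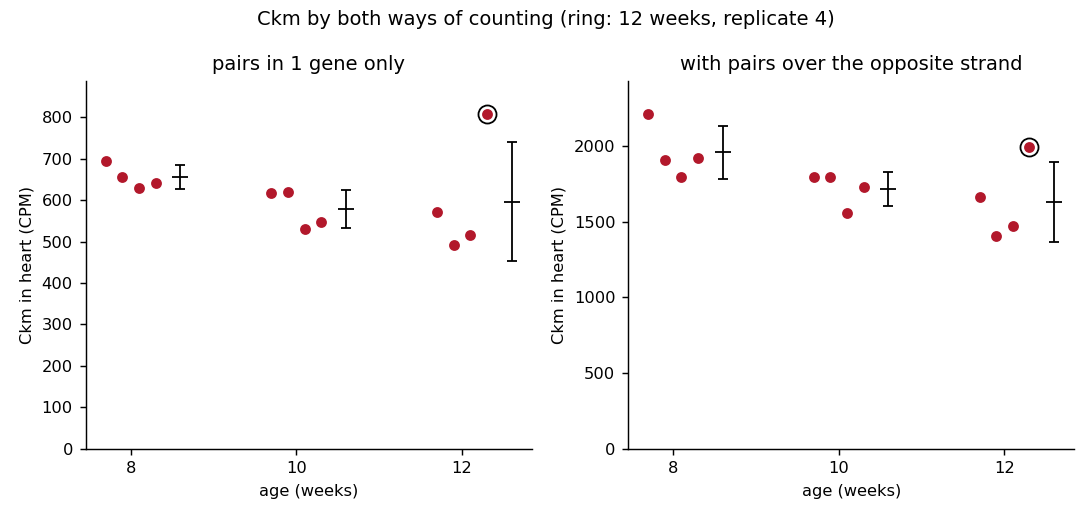
Level of Ckm in the heart libraries by age in the count without regard to strand and in the summed strand counts (CPM, linear axes, 1 point per library, ring around replicate 4 at 12 weeks). The summed count is higher in every library, and the ringed library lies above the other 12-week hearts in both, at 807 against 493 to 571 CPM and 1995 against 1407 to 1663 CPM.

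The library of replicate 4 at 12 weeks was the highest of its age for 7 of the 10 genes (all but Cd36, Lpl and Slc2a1) and decided these comparisons for 3. The share of all genes that were highest in this library was not counted. Without it, Ckm (log2 difference -0.32, adjusted p = 0.0203), Slc2a4 (-0.22, adjusted p = 0.0478) and Ldhb (-0.28, adjusted p = 0.0470) were lower at 12 than at 8 weeks, and 12.2% of all genes were called. With the strand counts summed and this library left out, Ckm (-0.38, adjusted p = 0.0177) and Ldhb (-0.28, adjusted p = 0.0496) were called, among 11.2% of all genes. In the same library, the cardiomyocyte markers summed to 66104 CPM against 54782 to 57353 in the other hearts at 12 weeks. Its brown fat list (Ucp1, Cidea, Dio2, Ppargc1b, Prdm16 and Cox8b) summed to 475 CPM against 285 to 311, with Ucp1 at 0 in every heart. Ppargc1b of this list averaged 11.9 CPM over all hearts, and which gene carried the sum was not examined. That list also summed to 360 to 393 CPM in the hearts at 8 weeks. The adipocyte markers of replicate 4 at 12 weeks summed to 0.186 CPM, against 0.183 to 0.320 CPM in the other hearts of its age. The part of the cardiomyocyte and brown fat sums in its Ckm, Slc2a4 and Ldhb levels was not tested. Groups of 4 hearts did not overlap for 1 of 10 genes at 12 against 8 weeks (Hk2, higher) and for 2 of 10 at 10 against 8 weeks (Slc2a4 and Ckm, lower), where 12.7% and 9.78% of all genes had no overlap. At 12 against 10 weeks all 10 overlapped, as did all but 6.08% of genes.

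**Figure D4:**
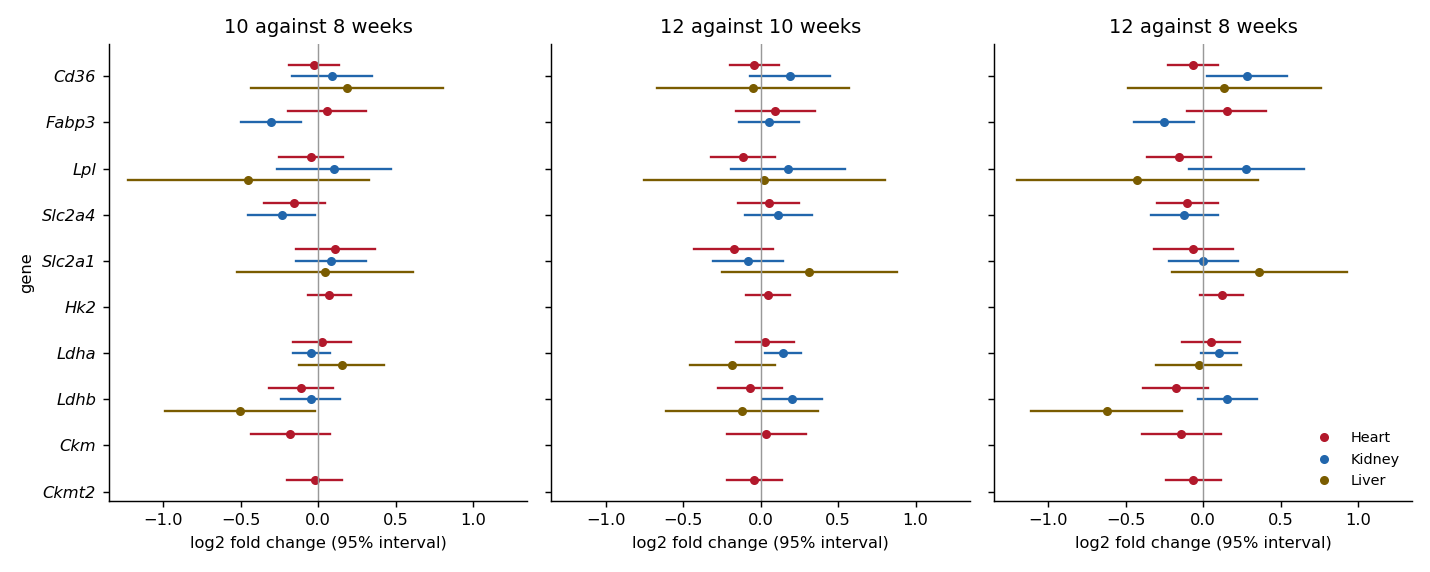
Log2 differences between ages with 95% intervals from edgeR, for 3 comparisons of ages in heart, kidney and liver. Hk2 in kidney and liver and Slc2a4 in liver are not drawn because of wide intervals, and Ckm and Ckmt2 in kidney and liver and Fabp3 in liver were too low to be tested. In heart every interval includes 0.

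In kidney, 8 of the 10 genes passed the filter on low counts (all but Ckm and Ckmt2) and none was called by edgeR between ages, where 0.0567% of genes were called at 12 against 8 weeks, 0.929% at 10 against 8 weeks and 0.482% at 12 against 10 weeks. In each of these 3 comparisons 2 of 8 had an unadjusted p under 0.05, against 11.7%, 16.5% and 16.4% of all genes. limma-voom called none and DESeq2 called Fabp3 at 10 against 8 weeks (log2 difference -0.31, adjusted p = 0.0442), where it called 3.85% of all genes. Fabp3 measured 57.9, 63.9, 65.0 and 61.6 CPM in the kidneys at 8 weeks, 40.7, 57.1, 46.3 and 54.1 CPM at 10 weeks and 49.96, 49.2, 50.8 and 58.2 CPM at 12 weeks. Scaled within kidney, both later ages lay below the 8-week kidneys without overlap, which 1 of 8 genes did in each comparison, against 6.61% of all genes at 12 weeks and 9.09% at 10 weeks. Between 12 and 10 weeks all 8 overlapped and 8.93% of all genes did not. edgeR gave log2 differences of -0.30 at 10 weeks (adjusted p = 0.113) and -0.25 at 12 weeks (adjusted p = 0.323), so neither passed the threshold. Cd36 measured 446, 411, 498 and 378 CPM at 8 weeks and 505, 621, 482 and 491 CPM at 12 weeks (log2 difference 0.28, adjusted p = 0.386). Slc2a4 in kidney had a log2 difference of -0.23 at 10 against 8 weeks (adjusted p = 0.256). At 12 against 10 weeks it was 0.14 for Ldha and 0.20 for Ldhb (adjusted p = 0.206 and 0.271).

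In liver, 7 of the 10 genes passed the filter (Fabp3, Ckm and Ckmt2 did not) and edgeR called none, against 0.239%, 0.0204% and 0.0545% of all genes at 12 against 8, 10 against 8 and 12 against 10 weeks. limma-voom and DESeq2 called none either, and 1, 2 and 0 of the 7 had an unadjusted p under 0.05, against 15.1%, 14.3% and 14.1% of genes. Ldhb, low in liver, measured 2.81, 3.41, 3.54 and 2.63 CPM at 8 weeks and 1.69, 1.83, 2.68 and 1.89 CPM at 12 weeks (log2 difference -0.62, adjusted p = 0.233). Slc2a4 measured 0.803, 1.97, 4.27 and 1.83 CPM at 8 weeks and 0.104, 1.34, 0.774 and 0.756 CPM at 10 weeks (log2 difference -1.53, adjusted p = 0.267). In both cases the groups of 4 livers overlapped, as they did for all 7 genes in the 3 comparisons, where 8.14%, 9.55% and 8.23% of all genes had no overlap. The difference between heart and kidney or liver in the change with age was tested by an interaction term in the fit of all libraries, and edgeR called none of the 10 genes. For 12 against 8 weeks 0.112% of genes were called against kidney and 4.16% against liver, and for 10 against 8 weeks 0.198% and 1.09%. The unadjusted p was under 0.05 for 0, 2, 0 and 1 of the 10 in these comparisons, in that order, against 11.1%, 18.4%, 7.94% and 14.5% of genes. Slc2a4 at 10 against 8 weeks came nearest, with a change in heart above that in liver by 1.31 on the log2 scale (unadjusted p = 0.00410, adjusted p = 0.123). DESeq2 called it (1.39, adjusted p = 0.0148) among 3.61% of all genes. It was also called by edgeR without replicate 1 of liver at 8 weeks (1.60, adjusted p = 0.0287) or replicate 2 of liver at 10 weeks (1.78, adjusted p = 0.0369). The shares of all genes called in the fits with a liver library left out are not given here.

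Ratios of paired genes within a library do not depend on scaling. Ldhb over Ldha in heart, as a log2 ratio of counts, was 1.96 ± 0.0799 at 8 weeks, 1.83 ± 0.116 at 10 weeks and 1.73 ± 0.0780 at 12 weeks (SD, n = 4). The 4 hearts at 12 weeks lay below the 4 at 8 weeks, with a difference of -0.23 (two-sided exact permutation test p = 0.0286, adjusted p = 0.129 over 9 tests), and 0.0286 is the smallest p that 70 splits of 4 and 4 hearts can give. In kidney the ratio was 1.52 ± 0.156, 1.52 ± 0.168 and 1.58 ± 0.0559 at the same ages, and in liver -7.15 ± 0.257, -7.81 ± 0.514 and -7.73 ± 0.461. The count without strand left out a median of 36.8% of Ldha pairs in heart and nearly none of Ldhb. With strand counts summed, Ldhb over Ldha in heart was lower, at 1.293 ± 0.0533, 1.149 ± 0.124 and 1.099 ± 0.0387. Its difference at 12 against 8 weeks was then -0.19, again without overlap (exact permutation p = 0.0286, adjusted p = 0.0857). Slc2a4 over Slc2a1 in heart was 4.74 ± 0.0480 at 8 weeks, 4.49 ± 0.167 at 10 weeks and 4.70 ± 0.179 at 12 weeks. Every heart of the middle age lay below every heart of the youngest, by 0.26 on the log2 scale (exact permutation p = 0.0286, adjusted p = 0.129). The count of Slc2a4 was thus far above that of Slc2a1 in heart, whereas in kidney Slc2a1 had the higher count at all ages (log2 ratio -0.22 ± 0.181, -0.53 ± 0.156 and -0.33 ± 0.127). Ckm over Ckmt2 in heart was -1.45 ± 0.0521, -1.60 ± 0.111 and -1.55 ± 0.220, and with strand counts summed 0.03 ± 0.119, -0.12 ± 0.0716 and -0.16 ± 0.124. At 10 against 8 weeks the difference was -0.16 (exact permutation p = 0.0571, adjusted p = 0.171) or -0.15 with summed counts (exact permutation p = 0.0286, adjusted p = 0.0857). None of the 9 tests passed after adjustment in either count.

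**Figure D5:**
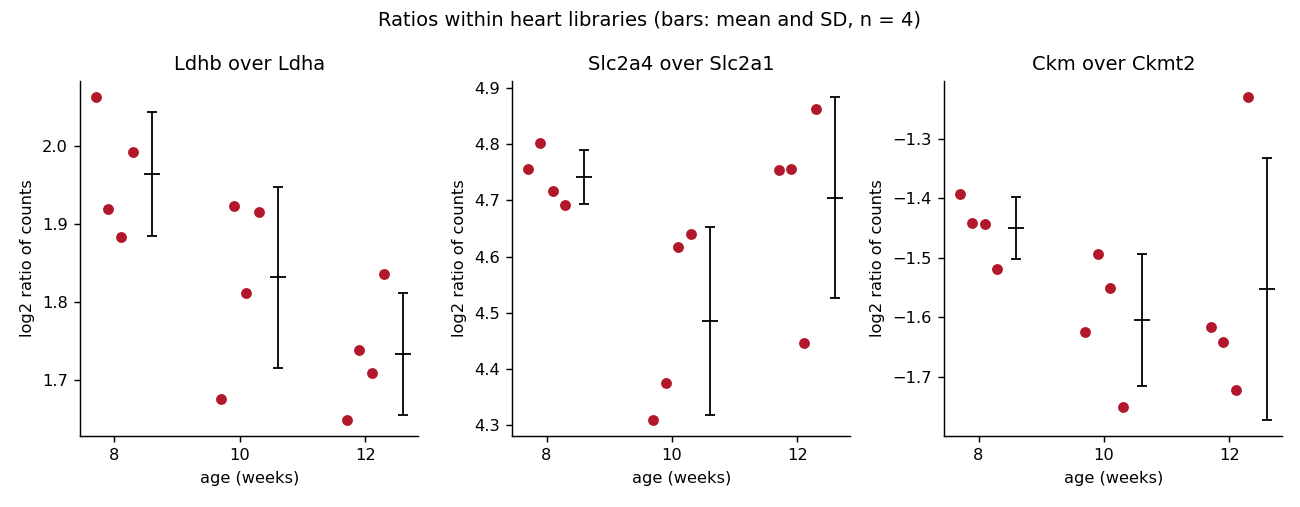
Log2 ratios of counts of Ldhb over Ldha, Slc2a4 over Slc2a1 and Ckm over Ckmt2 in the 12 heart libraries by age (points are libraries, bars the mean ± SD, n = 4). Ldhb over Ldha is 1.96 at 8 weeks and 1.73 at 12 weeks in the mean of the count without regard to strand, without overlap between these ages. With strand counts summed, these means are 1.293 and 1.099.

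The 10 genes and others of the same pathways were examined in 6 lists. Of their 98 members tested in heart, 9 were called at 12 against 8 weeks, none of them among the 10. Of these, 4 were higher and 5 lower, against 2.36% and 2.21% of all genes. The lists were chosen with earlier results of these data known, so their counts describe and do not test. Fibroblast markers summed to 714 to 771 CPM in the hearts at 8 weeks, 823 to 1089 CPM at 10 weeks and 774 to 943 CPM at 12 weeks, with both later ages above the youngest. Pairs that mapped to several places made up 17.3% to 19.1% of a heart library at 8 weeks and 16.2% to 16.6% at 12 weeks. The part of either in the changes below was not tested. Of 16 fatty acid genes tested, 2 rose and 2 fell, with a median log2 difference of -0.11 against 0.00 over all genes. Acsl1, the acyl-CoA synthetase that activates fatty acids, rose from 905 ± 52.5 to 1148 ± 47.9 CPM (SD, n = 4; log2 difference 0.34, adjusted p = 0.0158). Angptl4, an inhibitor of lipoprotein lipase, rose from 5.09 ± 0.812 to 12.4 ± 5.35 CPM (1.28, adjusted p = 0.0343), and the 4 hearts at 12 weeks all lay above the 4 at 8 weeks. Slc27a1, a fatty acid transport protein, fell from 246 ± 30.5 to 187 ± 16.6 CPM (-0.40, adjusted p = 0.0441). Without replicate 4 of heart at 10 weeks, Slc27a1 was not called (-0.40, edgeR adjusted p = 0.0550). Fabp4, the binding protein of adipocytes and endothelium, fell from 101 ± 19.1 to 67.3 ± 12.2 CPM (-0.59, adjusted p = 0.0247) but had a log2 difference of 0.17 (adjusted p = 0.304) when the strand counts were summed, so its direction depended on the counting.

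In the list of 22 glucose uptake and glycolysis genes, only the intracellular transporter Slc2a8 was called (from 25.4 ± 1.58 to 19.3 ± 1.87 CPM, log2 difference -0.40, adjusted p = 0.0187), and the median over the list was -0.09. Of 17 lactate and pyruvate genes 1 was called. This was Pdk4, the kinase that inhibits pyruvate dehydrogenase, which rose from 716 ± 158 to 1245 ± 232 CPM (0.79, adjusted p = 0.0150), and the list median was 0.02. None of the 11 genes of the creatine and phosphate shuttle, Ckm and Ckmt2 included, was called by edgeR, limma-voom or DESeq2. Of the 11, 2 had an unadjusted p under 0.05 in edgeR (median log2 difference -0.06). Among 14 genes of GLUT4 trafficking and insulin signalling 2 fell. They were Irs2, an adaptor of the insulin receptor, from 23.7 ± 5.32 to 11.7 ± 0.627 CPM (-1.02, adjusted p = 0.00148), and Aspscr1, the tether of GLUT4 vesicles known as TUG, from 17.0 ± 0.770 to 11.8 ± 1.19 CPM (-0.54, adjusted p = 0.0145). Irs2 was already lower at 10 than at 8 weeks (-0.73, adjusted p = 0.0151). Among 18 regulators of fuel genes 1 rose, Txnip, a restraint on glucose uptake, from 263 ± 87.1 to 491 ± 56.8 CPM (0.89, adjusted p = 0.0214). Irs2 and Pdk4 were called under all 20 other settings tried, Aspscr1 under 19, Acsl1 and Slc2a8 under 18 each, Txnip under 17 and Fabp4 under 16. The calls of Angptl4 and Slc27a1 were the least stable, being made under 13 and 12 of the 20, with adjusted p up to 0.105 and 0.117 (edgeR, limma-voom or DESeq2).

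These list counts moved with the same heart library. Without replicate 4 at 12 weeks, 28 of the 98 genes were called, 7 higher and 21 lower, where 12.2% of all genes were called. Ckm, Slc2a4 and Ldhb, already named above, are among the 28. The glycolysis list then had 9 of 22 lower, Slc2a4 included. Leaving out any other heart gave 4 to 10 called genes. In kidney edgeR called none of the 97 list genes tested at 12 against 8 weeks, and neither did limma-voom or DESeq2. In liver edgeR and limma-voom called none of 93 at 12 against 8 weeks and DESeq2 called 5. The share of all genes that DESeq2 called there is not given here. Whether the change of the named list genes differed between tissues was not tested.

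Over the 12 heart libraries, the gene most like each of the 10 in its log2 CPM was found by Pearson's r among all genes kept in heart. These are descriptions over hearts of 3 ages that share library depth and scaling, and no test was made. Ldhb was most like Ndufa7, a complex I subunit (r = 0.981, Spearman's rho = 0.965), and Slc2a4 most like Rab7, a small GTPase of endosomes (r = 0.969, rho = 0.951). Ckm was most like Gapdh, a glycolytic enzyme (r = 0.953, rho = 0.972), and Ldha most like the helicase Ddx24 (r = 0.947, rho = 0.804). For Hk2 it was Prep (r = 0.934), for Cd36 Rnf13 (r = 0.922), for Ckmt2 Gpn2 (r = 0.917), for Lpl Nudt19 (r = 0.897), for Fabp3 Ece1 (r = 0.891) and for Slc2a1 Kctd5 (r = 0.862).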

How the data were processed

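Polyadenylated RNA was sequenced in 36 libraries of heart, kidney and liver, 4 per tissue and age. The authors trimmed read pairs with cutadapt 4.2, checked them with FastQC 0.11.9 and aligned them to GRCm39 with STAR 2.7.11b, and deposited the raw read pair counts per gene. Pairs on no single gene (21.2% to 31.4% of a library) stayed out of library sizes. Gene names and positions came from GENCODE vM39 on the same build, which matched 78168 of 78239 identifiers.

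Genes with counts above 0 in at least 2 samples and a mean of at least 10 in at least 1 group were kept, as in the paper. TMM factors, estimateDisp, glmQLFit and glmQLFTest of edgeR 4.0.16 in R 4.3.3 were used with a mean per group, for each tissue alone (ages) and for all libraries (tissues and interactions), with Benjamini-Hochberg adjustment over all genes kept and 95% intervals. The common biological coefficient of variation of the hearts was 0.118, that of the livers 0.206 and that of the kidneys 0.113. Ratios used counts with 0.5 added, likeness log2 CPM with a prior count of 2, and near-copies blastn 2.17.0. Other tools were limma 3.58.1, DESeq2 1.42.0, python 3.11.15, numpy 2.4.6, pandas 2.3.3, scipy 1.17.1 and matplotlib 3.10.9. The fits were tested on simulated data. For heart at 12 against 8 weeks, 2% of simulated log2 changes of 0.25 were called, 46% of those of 0.5 and 98% of those of 1. Of the calls, 5.385% were false. Each size was put on 50 genes drawn at random, with 200 of 14880 genes changed in all. Changes of 0.25 were thus mostly missed over such genes. The 10 genes themselves were not simulated, so the chance of a call for them was not measured.

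The 10 genes and the pathway lists were chosen with earlier results of these data known. Named are all 10 genes, the called genes of each list in heart at 12 against 8 weeks (the 4 with the smallest p where more pass), and the gene most correlated with each of the 10. Alternatives were limma-voom, DESeq2, RLE factors, no filter, filterByExpr, summed strand counts, a replicate block and each library left out. Those on the lists and those combining summed counts with a left-out library were added after seeing the data.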

Additional observations from a re-analysis of the deposited data

Results flagged for a closer look

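In groups of 4 libraries, the highest or lowest library was compared with the rest of its group by Dixon's ratio at its 95% critical value. Of 76 groups tested over the 10 genes, 4 held a library past this value, and chance gives about 1 in 20. All 4 were in kidney. Hk2 in replicate 2 at 8 weeks was 4.148 CPM against 0.3042 to 0.5286 in the others of its age, in the library that also had 16.2 CPM of Ucp1. Hk2 in replicate 3 at 10 weeks was 1.513 CPM against 0.7431 to 0.8715. Cd36 in replicate 2 at 12 weeks was 621.1 CPM against 481.7 to 504.5, and this library also had the highest Lpl of its age, 1270 CPM. Ldhb in replicate 1 at 8 weeks was the lowest, 722.1 CPM against 896.1 to 929.6.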

How the results depend on the processing

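In heart at 12 against 8 weeks, leaving out 1 library gave 0 to 3 of the 10 genes called (3 without replicate 4 at 12 weeks), and 2 were called with strand counts summed and that library left out. The 6 pathway lists gave 4 to 28 called genes as libraries were left out and 25 in the latter setting, and the whole transcriptome 172 to 1850 against 691, with 1270 by DESeq2 and 1133 without a filter. In kidney, 1 gene was called at 12 against 8 weeks without a filter (Cd36), and at 10 against 8 weeks 1 by DESeq2, 1 without a filter and 0 to 1 as libraries were left out (Fabp3; called without replicate 2 at 10 weeks). For the change in heart minus that in liver, 1 gene (Slc2a4) was called at 12 against 8 weeks without a filter, and at 10 against 8 weeks 1 by DESeq2, 1 without a filter and 0 to 1 as libraries were left out. The cause was not tested in any of these. For kidney and for heart minus liver, the shares of all genes called without a filter or with a library left out are not given here. Those calls are therefore not read as results about the genes.

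Directions reversed only for differences that had not passed a test and for Fabp4. With strand counts summed, Slc2a4 over Slc2a1 at 12 against 8 weeks was 0.0191, Ckm over Ckmt2 at 12 against 10 weeks was -0.0421 and Fabp4 at 12 against 8 weeks was 0.17. With that count and without replicate 4 at 12 weeks, Ldha was -0.0656 and Fabp4 0.17. As libraries were left out, these ratios ran from -0.0894 to 0.0488 and from -0.0548 to 0.1095. At 12 against 8 weeks Slc2a1 then ran from -0.1536 to 0.0154 and Ldha from -0.0081 to 0.1198, with Ldha at -0.0046 without replicate 1 and -0.0081 without replicate 4 at 12 weeks.

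Replicate numbers did not pair the ages (correlation of deviations -0.079 to 0.150 in heart). Across tissues of an age, which share mice, the correlation ran from 0.031 to 0.212 for heart and kidney (6 of 12 over 0.1, same number the best match in 8), from -0.055 to 0.154 for heart and liver (5 and 5) and from 0.053 to 0.297 for kidney and liver (11 and 12). This is a hint from the data that numbers tie kidney and liver to mice, which the labels do not say, and the tests above take libraries as independent. The replicate block left the 10 genes uncalled between ages and all 10 called for heart against kidney and against liver, and gave 8 in place of 7 for kidney against liver, where Hk2 passed (-0.69, adjusted p = 0.0448).

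With 4 animals an age and counts of 0 to 3 pairs for Ckm and Ckmt2 outside heart, changes with age of the creatine kinases in kidney and liver were not detectable.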
